A study of Mus musculus with 9 samples.

Results

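8 ligand genes of blood and lymph vessel growth were followed in sorted smooth muscle cells of the mouse lung: Vegfa, Vegfb, Vegfc and Vegfd of the vascular endothelial growth factor (VEGF) family, the angiopoietins Angpt1 and Angpt2, and the angiopoietin-like genes Angptl2 and Angptl4. They were chosen by gene symbol, and all 8 were found among the 21049 genes of the table and passed the filter on low values, which asked for 10 or more in no fewer than 3 libraries and kept 15647 genes. The study comprised 9 RNA sequencing libraries in 3 groups of 3. BSMC were labelled bronchial smooth muscle cells and came from NVSMC-effector mice with the genotype Chrm2/Acta2-CreER/R26-GFP. PASMC were labelled pulmonary arterial smooth muscle cells and came from ASMC-effector mice with the genotype Cspg4/Acta2-CreER/R26-GFP. The group called total_SMC here was labelled as all pulmonary smooth muscle cells, the venous ones among them, and came from mice with the Acta2-GFP transgene (tg-Acta2-GFP). All 9 libraries were labelled as tamoxifen treated, at 0.75 mg per 10 g body weight on 3 days. The cells were sorted by fluorescence, and at most 10 ng of RNA entered each library. Age, sex and strain were not given in the sources used here, nor whether the libraries of a group came from separate animals, so that p-values measure the spread between these libraries, which may be technical.

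The groups were taken from different mouse lines, so that cell population, line and sort cannot be told apart in any comparison. All lines use Acta2, which is active in smooth muscle and also in myofibroblasts. Group names stand for the libraries labelled so, since markers went against the labels in part: of 8 tested airway smooth muscle genes 5 were higher in PASMC than in BSMC and 0 lower, where 13.2% of all tested genes were higher and 8.88% lower. Of 9 vascular smooth muscle genes 2 were higher and 1 lower in PASMC. Hhip, a Hedgehog antagonist of airway smooth muscle, ran from 7414 to 7798 in PASMC and from 2913 to 3491 in BSMC. General smooth muscle markers were present in every library: 8 genes summed to 3802 to 4624 CPM (counts scaled to a common library total) in BSMC, 3466 to 3843 in PASMC and 2870 to 3281 in total_SMC. Of these, 6 of 8 were lower in total_SMC than in BSMC (18.2% of all tested genes). The deposited values are normalized read counts, and implied depth, the values divided by a library factor recovered from their spacing, was 6.39 M to 10.02 M reads. In limma over all tested genes 3451 differed between PASMC and BSMC, 2539 between total_SMC and PASMC and 6553 between total_SMC and BSMC, at the threshold used throughout, an adjusted p under 0.05.

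VEGF ligands signal through receptor tyrosine kinases on endothelial cells. VEGF-A acts mainly through Kdr, VEGF-B binds Flt1, and VEGF-C and VEGF-D act through Flt4, the receptor that guides lymphatic growth. Angiopoietin-1, made by mural cells, activates the endothelial receptor Tek, and angiopoietin-2 competes with it and, depending on context, blocks or weakly activates the receptor. The angiopoietin-like proteins share the fold of the angiopoietins but do not act through Tek: ANGPTL4 inhibits lipoprotein lipase, and ANGPTL2 is a secreted factor that binds integrins.

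The ligand genes separated total_SMC from the other groups in both directions. Vegfa and Vegfd were higher in total_SMC than in either other group, and Vegfb and Angpt2 were lower than in either. Angpt1 and Angptl4 were higher in total_SMC than in BSMC. Between PASMC and BSMC the called members were Angptl4, higher in PASMC, and Vegfb, lower. Vegfc and Angptl2 passed no comparison. The members called numbered 2 of 8 for PASMC against BSMC, where 22.1% of all tested genes were called. They numbered 4 of 8 for total_SMC against PASMC (16.2% of all tested genes) and 6 of 8 for total_SMC against BSMC (41.9%). These comparisons share groups, so the counts are not independent of each other.

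**Figure D1:**
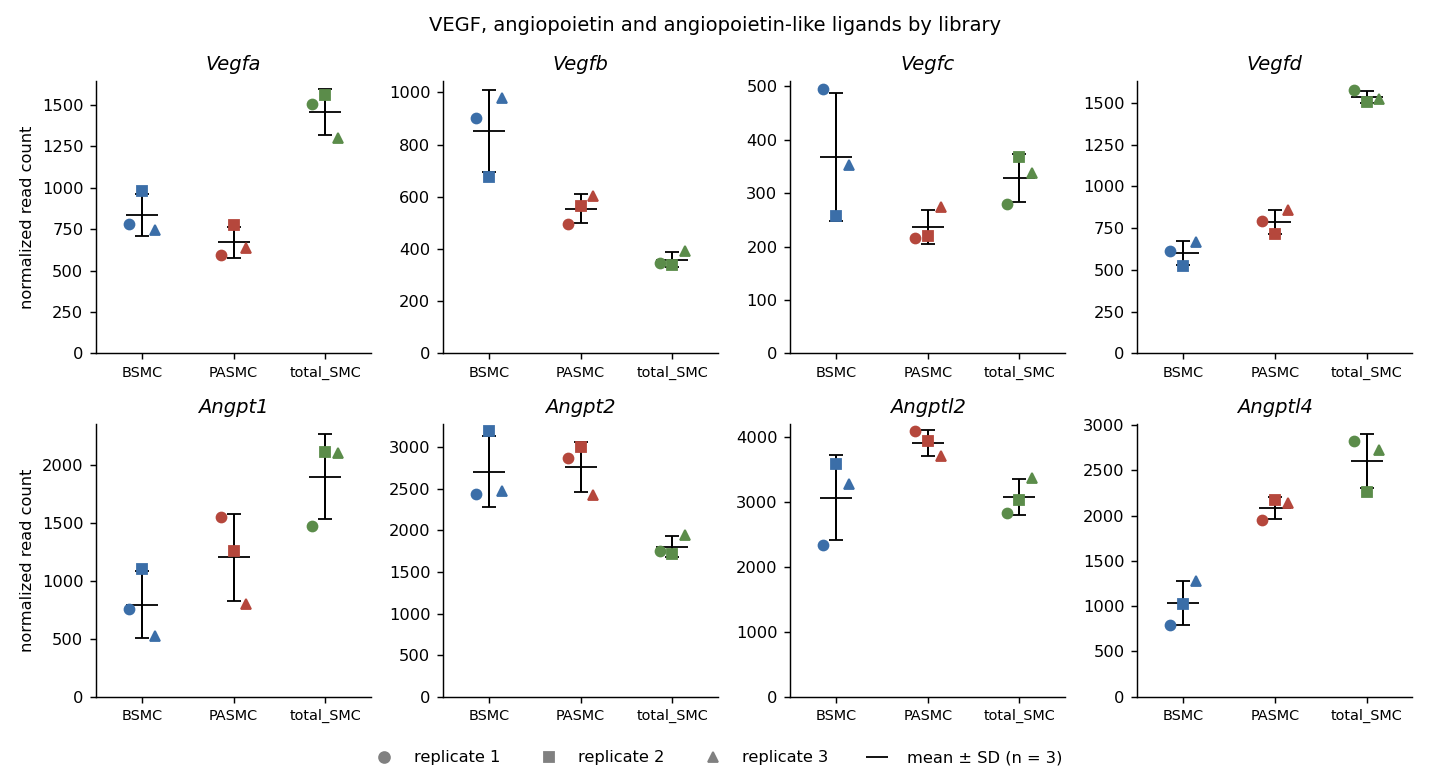
Normalized read count (vertical axes, from 0) of the 8 ligand genes in each library of the 3 groups; symbols mark replicates 1 to 3, and black bars the mean ± SD (n = 3). Vegfa and Vegfd lie at 1299 to 1577 in total_SMC, above all other libraries, and Vegfb and Angpt2 lie below all other libraries there.

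Vegfa, the main growth factor of blood vessels, lies on mm39 chromosome 17 at 46327919 to 46343295 on the minus strand (ENSMUSG00000023951). Its normalized read counts were 782, 978 and 742 in BSMC replicates 1 to 3, 594, 776 and 639 in PASMC, and 1505, 1561 and 1299 in total_SMC. All total_SMC libraries exceeded all others, whereas PASMC and BSMC overlapped. Vegfa was 2.18-fold higher in total_SMC than in PASMC (log2 fold change 1.12, SE 0.16, adjusted p = 0.00049) and 1.75-fold higher than in BSMC (0.81, SE 0.16, adjusted p = 0.00181). Between PASMC and BSMC the difference was -0.31 (SE 0.16, adjusted p = 0.153), without a call in any of 21 alternatives.

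Vegfd, a ligand of lymphatic vessels that is abundant in lung, is on chromosome X at 163156374 to 163185646 on the plus strand (ENSMUSG00000031380). Counts were 611, 522 and 665 in BSMC, 794, 715 and 858 in PASMC, and 1577, 1503 and 1525 in total_SMC. The 3 groups did not overlap, and the spread within total_SMC was small, with an SD of 2.48% of the mean. It was 1.95-fold higher in total_SMC than in PASMC (0.96, SE 0.13, adjusted p = 0.000531) and 2.57-fold higher than in BSMC (1.362, SE 0.13, adjusted p = 2.08e-05). The difference between PASMC and BSMC, 0.40 (SE 0.13), missed the threshold (adjusted p = 0.053). It passed without BSMC replicate 3 (0.48, adjusted p = 0.0392) and on implied reads without scaling (0.63, adjusted p = 0.0118).

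Vegfb, a ligand with a known part in coronary vessels and fatty acid uptake, ran opposite to Vegfd. It lies on chromosome 19 at 6959841 to 6965019 on the minus strand (ENSMUSG00000024962). Its counts were 903, 678 and 979 in BSMC, 496, 565 and 604 in PASMC, and 345, 339 and 393 in total_SMC. The groups stood in the order BSMC, PASMC, total_SMC with no overlap. Vegfb fell by 0.61 on the log2 scale from BSMC to PASMC (SE 0.17, adjusted p = 0.0258) and by 0.63 from PASMC to total_SMC (SE 0.17, adjusted p = 0.0253). From BSMC to total_SMC it fell by 1.23 (SE 0.17, adjusted p = 0.000195). Leaving out BSMC replicate 1 (adjusted p = 0.0825) or 3 (0.0793), or PASMC replicate 1 (0.109) or 2 (0.0711), ended the first call. The second ended without PASMC replicate 2 (0.087) or 3 (0.0979) or total_SMC replicate 1 (0.0885), 2 (0.0933) or 3 (0.0519). The first was also lost on implied reads (0.103), with only those groups in the fit (0.0634) and without the trend and robust options (0.0516).

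Vegfc, the other ligand of Flt4, passed no comparison. It is on chromosome 8 at 54530641 to 54640131 on the plus strand (ENSMUSG00000031520). Counts were 495, 257 and 352 in BSMC, 216, 219 and 273 in PASMC, and 279, 368 and 337 in total_SMC. BSMC spanned total_SMC and overlapped PASMC, and PASMC replicates 1 and 2 lay below every BSMC library. Every total_SMC library lay above every PASMC library. The differences were -0.60 (SE 0.24, adjusted p = 0.0858) for PASMC against BSMC, 0.47 (SE 0.24, adjusted p = 0.223) for total_SMC against PASMC and -0.12 (SE 0.24, adjusted p = 0.69) for total_SMC against BSMC. The first of these depended on single BSMC libraries: it was -0.83 without replicate 2 (adjusted p = 0.00931) and -0.36 without replicate 1 (adjusted p = 0.275). With array weights, which give noisier libraries less weight, it was -0.78 (adjusted p = 0.0281), and the second difference was 0.52 (adjusted p = 0.0194). The last changed sign without BSMC replicate 1 (0.12) and on implied reads (0.06).

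The bases before the start of transcription are shown for Vegfa and Vegfd, higher in total_SMC than in both other groups, and for Vegfb, lower than in both. They are the 250 bases upstream of the first RefSeq start, 5′ to 3′ on the strand of the gene, in build GRCm38.p6, which is older than the mm39 of the table. The positions are chr17:46032378-46032627 on the minus strand, chrX:164373272-164373521 on the plus strand and chr19:6987652-6987901 on the minus strand. Capitals mark matches on either strand to any of several short motifs, which may overlap. The GC box, bound by Sp factors, was searched as GGGCGG. The TATA box, where the basal machinery binds, was searched as TATAAA. The core of the hypoxia response element was taken as ACGTG, or with G in its opening place as GCGTG. The AP-1 site, bound by Fos and Jun, was searched as TGANTCA.
Vegfa: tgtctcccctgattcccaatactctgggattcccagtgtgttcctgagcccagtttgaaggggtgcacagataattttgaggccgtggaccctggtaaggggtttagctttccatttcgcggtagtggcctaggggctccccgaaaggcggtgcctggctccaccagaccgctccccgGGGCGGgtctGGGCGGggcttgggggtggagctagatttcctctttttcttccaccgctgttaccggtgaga
Vegfd: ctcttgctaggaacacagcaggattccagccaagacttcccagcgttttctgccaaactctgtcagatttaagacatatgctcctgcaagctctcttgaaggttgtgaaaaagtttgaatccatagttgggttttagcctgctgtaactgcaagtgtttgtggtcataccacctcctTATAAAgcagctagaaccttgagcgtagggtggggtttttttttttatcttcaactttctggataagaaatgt
Vegfb: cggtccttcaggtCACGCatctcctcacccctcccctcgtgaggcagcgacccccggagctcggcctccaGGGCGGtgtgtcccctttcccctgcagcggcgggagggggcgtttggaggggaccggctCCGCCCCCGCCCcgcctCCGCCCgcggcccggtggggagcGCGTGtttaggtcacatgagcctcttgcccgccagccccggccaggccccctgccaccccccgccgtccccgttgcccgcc
The Vegfd window held 42.4% G and C, 1 TATA box and 0 GC boxes. Vegfa held 59.2% G and C with 2 GC boxes at the start shown. The window of its second RefSeq start, not printed (chr17:46025164-46025413), held 1 GC box and 2 hypoxia cores. That window lies downstream of the first start, within the gene, so its letters need not belong to a promoter. Vegfb held 76.4% G and C with 4 GC boxes and 2 hypoxia cores. Of 32851 such windows in the RefSeq set, 32.7% held a GC box, 12.4% a TATA box, 38.6% a hypoxia core and 6.75% an AP-1 site, which occurred in none of these 3 windows. A match describes the letters and shows neither binding nor a cause. RefSeq windows were found for 5 of the 8 genes, and besides these Vegfc had 2 GC boxes and Angptl2 had 2.

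Angpt1, the activating ligand of Tek, lies on chromosome 15 at 42288119 to 42540373 on the minus strand (ENSMUSG00000022309). It varied most within groups: its counts were 760, 1100 and 522 in BSMC, 1549, 1255 and 803 in PASMC, and 1474, 2112 and 2107 in total_SMC, with SDs of 36.6%, 31.3% and 19.3% of the mean. The total_SMC libraries lay above BSMC, and PASMC overlapped both. Angpt1 was 2.47-fold higher in total_SMC than in BSMC, a log2 difference of 1.30 (SE 0.29, adjusted p = 0.00402). Differences of 0.61 for PASMC against BSMC (SE 0.29, adjusted p = 0.133) and 0.69 for total_SMC against PASMC (SE 0.29, adjusted p = 0.136) did not pass. The former was 0.88 without BSMC replicate 2 (adjusted p = 0.0222) and 0.34 without BSMC replicate 3 (adjusted p = 0.387). The latter passed with only those groups in the fit (adjusted p = 0.0300) and with array weights (0.0144).

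Angpt2, the context-dependent antagonist, moved the other way. It is on chromosome 8 at 18740279 to 18791578 on the minus strand (ENSMUSG00000031465). Counts were 2442, 3201 and 2478 in BSMC, 2870, 2998 and 2426 in PASMC, and 1749, 1715 and 1948 in total_SMC. The total_SMC libraries lay below all others, and BSMC and PASMC overlapped. Angpt2 fell by 0.61 on the log2 scale from PASMC to total_SMC (SE 0.13, adjusted p = 0.00798) and by 0.58 from BSMC (SE 0.13, adjusted p = 0.00549). On implied reads without scaling both calls were lost (-0.66, adjusted p = 0.0882, and -0.39, adjusted p = 0.192). Between PASMC and BSMC the difference was 0.04 (SE 0.13, adjusted p = 0.861), and its sign changed under other scalings.

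The balance of ligand pairs was also read within each library, where a scaling factor cancels. Per kilobase of exon, Angpt2 was 4.53, 4.10 and 6.70 times Angpt1 in BSMC, 2.61, 3.37 and 4.26 times in PASMC, and 1.67, 1.15 and 1.30 times in total_SMC. The total_SMC ratios lay below those of both other groups, which overlapped. Vegfa per kilobase was 0.284 to 0.540 of Vegfb in BSMC and 0.396 to 0.514 in PASMC, and 1.24 to 1.72 times Vegfb in total_SMC. Vegfd was 1.26 to 2.07 times Vegfc in BSMC, 3.20 to 3.74 times in PASMC and 4.15 to 5.75 times in total_SMC, with no overlap between groups. Angptl2 was 1.44 to 1.97 times Angptl4 in BSMC, 0.973 to 1.18 times in PASMC and 0.563 to 0.753 times in total_SMC, again without overlap. These ratios follow from the values above, which were known when the pairs were chosen, and were not tested.

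**Figure D2:**
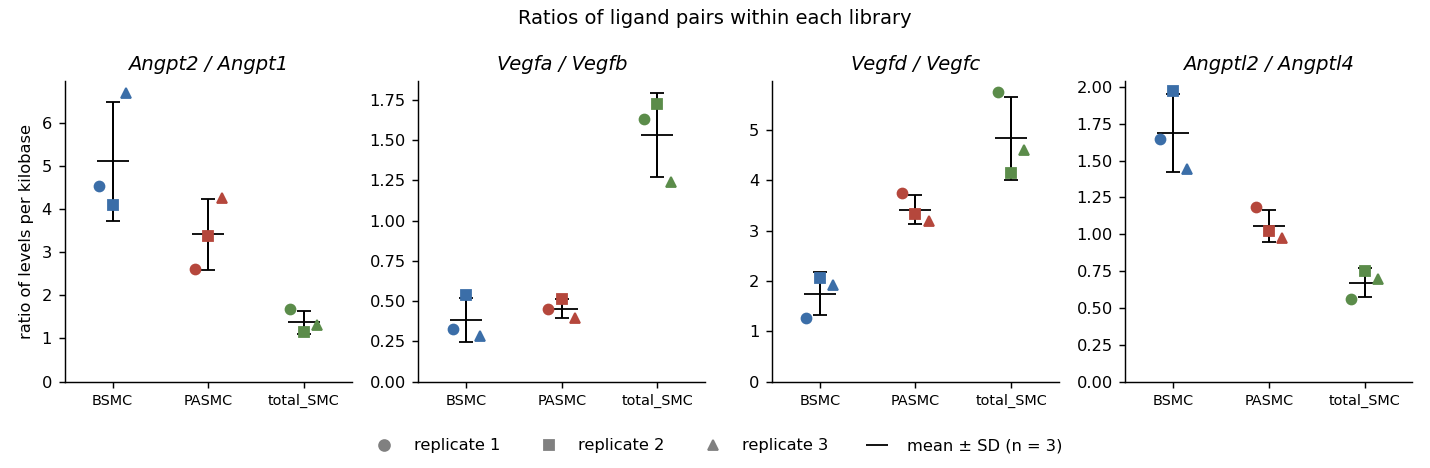
Ratio of the levels per kilobase of exon of a ligand pair within each library (vertical axes, from 0) in the 3 groups; symbols mark replicates 1 to 3, and black bars the mean ± SD (n = 3). Angpt2 / Angpt1 lies at 1.15 to 1.67 in total_SMC and at 2.61 or above elsewhere, and Vegfa / Vegfb exceeds 1 in total_SMC libraries only.

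Angptl4, an inhibitor of lipoprotein lipase and a known target of fatty acid and hypoxia signalling, rose from BSMC to PASMC. It lies on chromosome 17 at 33992724 to 34000804 on the minus strand (ENSMUSG00000002289). Counts were 795, 1023 and 1279 in BSMC, 1950, 2173 and 2140 in PASMC, and 2822, 2266 and 2731 in total_SMC. No groups overlapped. Angptl4 was 2.06-fold higher in PASMC than in BSMC (1.04, SE 0.16, adjusted p = 0.00106) and 2.56-fold higher in total_SMC than in BSMC, a log2 difference of 1.356 (SE 0.16, adjusted p = 8.53e-05), in all 21 alternatives. For total_SMC against PASMC the difference of 0.32 (SE 0.16) did not pass (adjusted p = 0.246), but did with only those groups in the fit (0.0408) and with array weights (0.0188).

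Angptl2, the integrin-binding member, passed no comparison either. It is on chromosome 2 at 33106081 to 33137729 on the plus strand (ENSMUSG00000004105). Counts were 2327, 3576 and 3277 in BSMC, 4089, 3934 and 3698 in PASMC, and 2819, 3028 and 3365 in total_SMC. PASMC lay above both other groups without overlap, and those overlapped each other. The difference was 0.37 (SE 0.15, adjusted p = 0.0866) for PASMC against BSMC, -0.35 (SE 0.15, adjusted p = 0.147) for total_SMC against PASMC and 0.02 (SE 0.15, adjusted p = 0.905) for total_SMC against BSMC. The first was 0.50 without BSMC replicate 2 (adjusted p = 0.0159), 0.19 without BSMC replicate 1 (adjusted p = 0.28) and 0.49 with array weights (adjusted p = 0.0298). The second passed without BSMC replicate 1 (adjusted p = 0.0394), under quantile scaling (0.0475), with only those groups in the fit (0.014) and with array weights (0.0295).

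**Figure D3:**
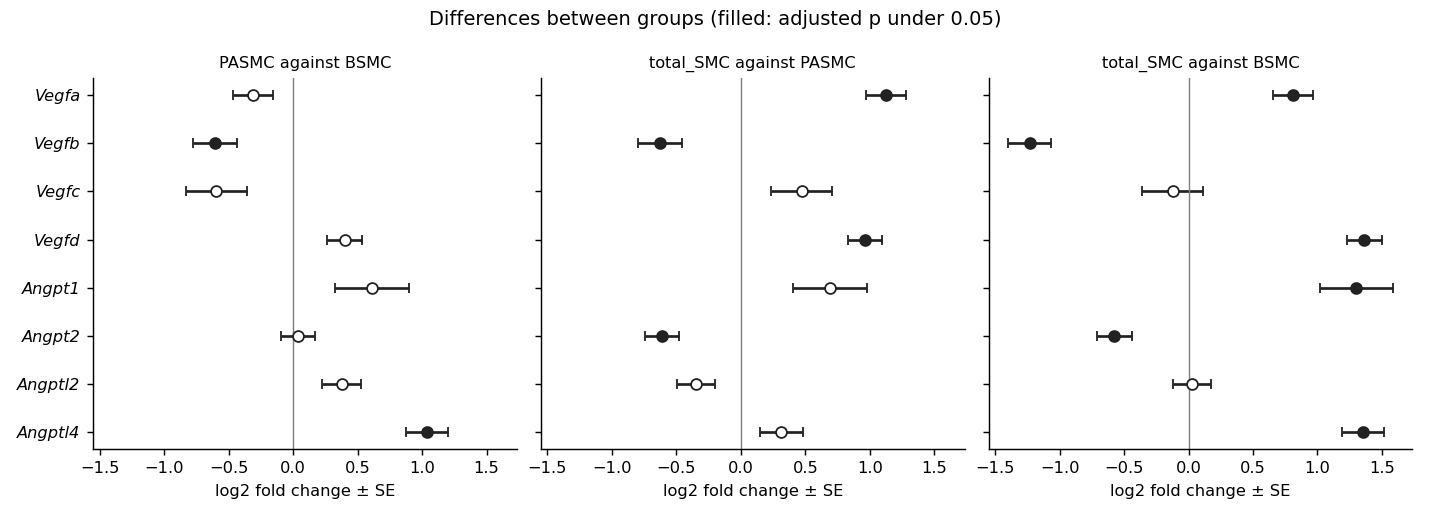
Log2 fold change ± SE from limma (horizontal axes) of the 8 ligand genes in the 3 comparisons; filled points have an adjusted p under 0.05. Filled points number 2, 4 and 6 from left to right, and Vegfb is filled on the negative side in each.

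Groups failed to overlap in 4 of 8 members for PASMC against BSMC, where 35.2% of all tested genes did not overlap. The count was 7 of 8 for total_SMC against PASMC (40.5% of all tested genes) and 6 of 8 for total_SMC against BSMC (50.5%). By direction, 1 member was higher and 1 lower in PASMC than in BSMC, beside 13.2% and 8.88% of all tested genes. In total_SMC 2 were higher and 2 lower than in PASMC (9.39% and 6.83%), and 4 higher and 2 lower than in BSMC (23.7% and 18.2%). The median log2 fold change of the 8 was 0.21, 0.39 and 0.42 in these comparisons, and that of all tested genes 0.05, 0.03 and 0.05.

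Compared per kilobase of exon, with exonic lengths from GENCODE vM21 over all transcripts of a gene, the ligands differed in rank between groups. In BSMC Angpt2 led at 734 ± 116 normalized reads per kilobase, above Vegfb at 532 ± 97.5 and Angptl2 at 487 ± 104. The latter pair overlapped across libraries, while Vegfc and Angpt1 were lowest, at 150.3 ± 48.9 and 153 ± 55.8, and overlapped too. PASMC had Angpt2 at 749 ± 81.4, Angptl2 at 622 ± 31.3 and Angptl4 at 589.6 ± 34.0. There Angpt2 lay above Angptl2 in every library, while Angptl2 and Angptl4 overlapped. In total_SMC the order opened with Angptl4 at 736 ± 84.2 and Vegfd at 637 ± 15.8, which overlapped, followed by Angpt2 at 489 ± 34.1 and Angptl2 at 488 ± 43.8. Vegfb, second in BSMC, was second lowest in total_SMC at 224 ± 18.4, and Vegfc was lowest there at 134 ± 18.4. Summed over the 8 genes the level was 2603 to 2909 per kilobase in BSMC, 2998 to 3213 in PASMC and 3338 to 3558 in total_SMC.

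Genes with patterns most like a member were named by the highest Pearson correlation of log2 values across the 9 libraries, among 10268 protein coding genes; group differences drive these values and they are descriptions. Vegfa was closest to Sox7 (r = 0.984), an endothelial transcription factor, and to Aqp1 (0.977), a water channel. For Vegfd they were Fmod (0.995), a collagen-binding proteoglycan, and Tmeff2 (0.990). Vegfb was closest to Fahd2a (0.996) and to Idh3b (0.993), a subunit of a mitochondrial dehydrogenase. The nearest genes were Oxr1 (0.990) for Angpt1, Mark1 (0.981) for Angpt2, Garem1 (0.975) for Angptl2, Obsl1 (0.990) for Angptl4 and Arl1 (0.957) for Vegfc. Among the members themselves, Vegfb correlated with Angpt1 at -0.910 and Vegfd with Angpt2 at -0.901.

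Receptor genes moved with the total_SMC libraries. Of 8 genes of VEGF and angiopoietin receptors and their partners, 7 were higher in total_SMC than in PASMC (9.39% of all tested genes) and 7 higher than in BSMC (23.7%), and 0 were lower. Between PASMC and BSMC 1 was higher (13.2% of all tested genes) and 0 lower. Kdr, the main VEGF-A receptor, was at 1093, 1190 and 1053 in total_SMC, 278, 359 and 195 in PASMC, and 257, 289 and 220 in BSMC (2.04 against PASMC, adjusted p = 8.25e-05). Tek, the angiopoietin receptor, was at 2945, 3218 and 3332 in total_SMC against 750 to 1059 in PASMC and 354 to 940 in BSMC (2.33 against BSMC, adjusted p = 9.04e-05). In both genes total_SMC lay above all other libraries. Flt4, the receptor of VEGF-C and VEGF-D, was at 170 to 233 in total_SMC and 21 to 52 in PASMC (2.56, adjusted p = 0.000421). Nrp2, a co-receptor, was higher in PASMC than in BSMC (1.30, adjusted p = 0.00239) and higher again in total_SMC than in PASMC (0.92, adjusted p = 0.0185). The exception was Flt1, the VEGF-B receptor, chosen after its values were seen, at 330 to 520 in total_SMC, 290 to 391 in PASMC and 310 to 368 in BSMC.

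**Figure D4:**
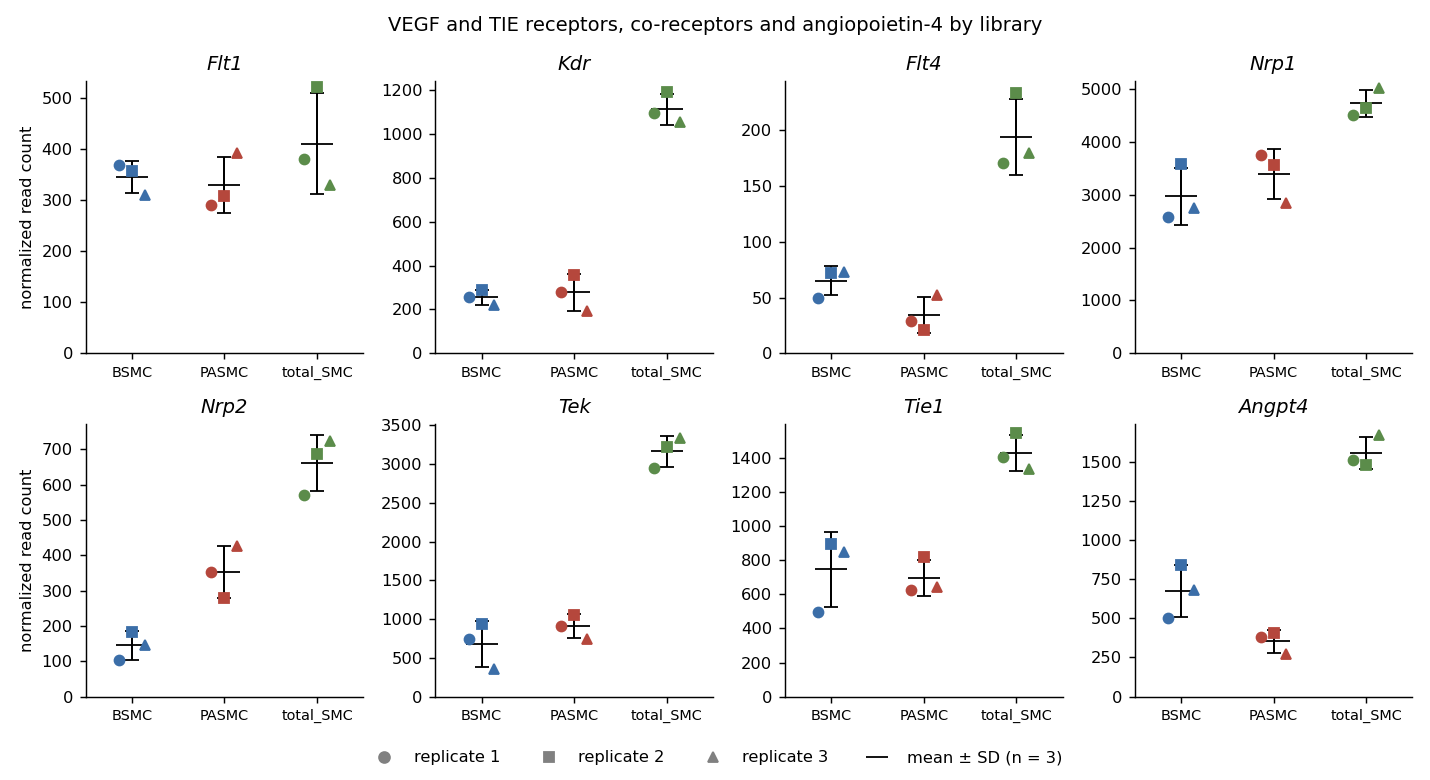
Normalized read count (vertical axes, from 0) of 7 receptors and co-receptors and of the ligand Angpt4 in each library of the 3 groups; symbols mark replicates 1 to 3, and black bars the mean ± SD (n = 3). Tek lies at 2945 to 3332 in total_SMC and at 1059 or below elsewhere, while Flt1 overlaps between all groups.

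Marker lists of other cells were read beside these results and differed in their order of groups. Endothelial markers, 8 of 8 in the table, summed to 1019 to 1354 CPM in total_SMC, 697 to 888 in PASMC and 908 to 1082 in BSMC. Among them 5 were higher in total_SMC than in PASMC (9.39% of all tested genes) and 2 than in BSMC (23.7%), with 0 lower. Compared with BSMC, 3 were lower in PASMC (8.88%) and 0 higher (13.2%). Kdr and Ptprb belong to that list and to the receptors. Pecam1, an adhesion molecule of endothelium, was at 2050 to 2387 in total_SMC, 1405 to 1890 in PASMC and 1732 to 2521 in BSMC, and was not called between total_SMC and BSMC (0.07, adjusted p = 0.735). Mesothelial markers, 7 of 7, summed to 596 to 743 CPM in total_SMC, 28.4 to 47.8 in PASMC and 68.3 to 173 in BSMC, with Muc16 listed at 0 in every PASMC library. Fibroblast markers, 9 of 9, summed to 4837 to 5354 CPM in total_SMC, 3476 to 3926 in PASMC and 2869 to 3523 in BSMC. For PASMC against BSMC 5 were higher (13.2% of all tested genes). In total_SMC 4 were higher than in PASMC (9.39%) and 5 than in BSMC (23.7%), and 0 were lower in any comparison. Pdgfra was at 6749 to 8301 in total_SMC, 1707 to 2061 in PASMC and 207 to 520 in BSMC. Col1a1, in contrast, overlapped between all groups. Alveolar type 1 markers, 5 of 5, summed to 208 to 332 CPM in total_SMC, 110.1 to 131 in PASMC and 289.9 to 311 in BSMC. Lymphatic endothelial markers, 5 of 5, summed to 211 to 309 CPM in total_SMC, 142 to 177 in PASMC and 211 to 292 in BSMC. Reln was listed at 0 in PASMC replicates 1 and 2 and BSMC replicate 2. By gene, 3 were higher in total_SMC than in PASMC (9.39% of all tested genes) and 2 than in BSMC (23.7%), with 0 lower. Against BSMC, 1 was lower in PASMC (8.88%) and 0 higher (13.2%). Mmrn1 was at 393 to 462 in total_SMC, 17 to 35 in PASMC and 1 to 52 in BSMC. Lyve1, with the highest counts of the list, overlapped between all groups. Leukocyte markers, 9 of 9, summed to 643 to 928 CPM in BSMC, 12.03 to 12.2 in PASMC and 42.0 to 72.8 in total_SMC. Erythroid markers, 5 of 5, summed to 35.0 to 84.5 CPM in BSMC, 0.810 to 2.34 in PASMC and 8.82 to 16.8 in total_SMC. Alveolar type 2 and club markers, 7 of 7, ran highest in PASMC, at 715 to 793 CPM, against 399 to 588 in BSMC and 258 to 289 in total_SMC. Of these, 5 were higher in PASMC than in BSMC (13.2% of all tested genes) and 6 lower in total_SMC than in PASMC (6.83%). Vascular smooth muscle markers, 9 of 9, summed to 1227 to 1310 CPM in total_SMC, 1928 to 2050 in PASMC and 1968 to 2225 in BSMC. Of these, 7 of 9 were lower in total_SMC than in BSMC (18.2% of all tested genes). Pericyte markers, 8 of 8, summed to 1053 to 1334 CPM in BSMC, 1437 to 1583 in PASMC and 1549 to 1597 in total_SMC. Against BSMC, 3 were higher and 4 lower in PASMC (13.2% and 8.88% of all tested genes) and again in total_SMC (23.7% and 18.2%). Dissociation response genes, 12 of 12, summed to 2947 to 4388 CPM in BSMC, 3310 to 3714 in PASMC and 2909.5 to 3088 in total_SMC. Of these, 4 were lower in total_SMC than in PASMC (6.83%) and 0 higher. The part of all these genes in the ligand differences was not tested. In such bulk samples fewer cells of a type and less RNA per cell cannot be told apart.

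Of 7 further ligands of these families, 6 passed the filter; 3 were higher in total_SMC than in PASMC (9.39% of all tested genes) and 3 than in BSMC (23.7%), and 0 were lower. Angpt4, the mouse counterpart of a further Tek ligand, was at 1513, 1481 and 1670 in total_SMC, 382, 409 and 271 in PASMC, and 505, 840 and 682 in BSMC. It was the 1 gene of this list called between PASMC and BSMC (-0.92, SE 0.21, adjusted p = 0.00884) and was higher in total_SMC than in PASMC by 2.15 (adjusted p = 5.05e-05). Angptl7 was at 363, 358 and 326 in total_SMC and at 10 to 52 in all other libraries (3.90 against PASMC, adjusted p = 0.000314). Angptl8, an activator of lipase inhibition in fat and liver, was near the filter, at 23 to 36 in total_SMC and 2 to 17 elsewhere (2.25 against PASMC, adjusted p = 0.0374). Pgf, placental growth factor and a ligand of Flt1, was singled out once its values were known. It ran from 988 to 1655 over all libraries and was called in no comparison.

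Genes that process VEGF-C and VEGF-D were higher in PASMC than in BSMC in 5 of 8 cases and lower in 0, with 13.2% of all tested genes higher and 8.88% lower. In total_SMC 2 were higher and 2 lower than in PASMC, and 4 were higher and 0 lower than in BSMC, beside 9.39% and 6.83%, and 23.7% and 18.2%, of all tested genes. Ccbe1, the cofactor of VEGF-C cleavage, was at 8, 14 and 13 in BSMC, 50, 47 and 90 in PASMC, and 134, 133 and 163 in total_SMC (2.29 for PASMC against BSMC, adjusted p = 0.000917). Adamts3, the protease it recruits, was at 85, 77 and 106 in total_SMC and at 40, 10 and 8 in BSMC (2.49, adjusted p = 0.00381). Pcsk5, a proprotein convertase, was highest in PASMC, at 1704 to 2047, against 673 to 900 in BSMC (1.34, adjusted p = 7.04e-05) and 1134 to 1312 in total_SMC. Adamts2 stood at 2831 to 3380 in BSMC, 5151 to 5323 in PASMC and 7329 to 8289 in total_SMC, where each group was called against each other one.

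Around Angptl4 and Angptl2, 4 genes of their targets and receptor were tested. Lpl, lipoprotein lipase, was at 1390, 2025 and 1627 in total_SMC, 806 to 1148 in PASMC and 886 to 1098 in BSMC (0.77 against PASMC, adjusted p = 0.0103). Gpihbp1, which carries the lipase on capillary endothelium, was at 66, 55 and 76 in PASMC, 293, 206 and 363 in BSMC, and 436, 445 and 342 in total_SMC (-2.09 for PASMC against BSMC, adjusted p = 0.000121). Itga5, an integrin subunit that binds ANGPTL2, was higher in PASMC than in BSMC (0.71, SE 0.23, adjusted p = 0.0478), at 4608 to 5555 against 2313 to 3944.

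Hypoxia response genes, of which Vegfa and Angptl4 are textbook examples, were called in shares near those of all tested genes in part. The lower calls in total_SMC against PASMC, 4 of 22 genes, exceeded the 6.83% of all tested genes. Of 22 genes 1 was higher and 4 lower in total_SMC than in PASMC, 7 higher and 4 lower than in BSMC, and 3 higher and 1 lower in PASMC than in BSMC. The shares of all tested genes, higher and lower, were 9.39% and 6.83%, 23.7% and 18.2%, and 13.2% and 8.88% in that order. The list's medians were -0.02, 0.16 and 0.12. The counts called are small and say little about hypoxia genes as a list, which was not tested. Hk2, a hexokinase, was at 49, 27 and 31 in total_SMC and 180, 105 and 164 in BSMC (-2.05, adjusted p = 0.000776). Egln3, an oxygen-sensing hydroxylase, was at 39 to 46 in total_SMC and 83 to 138 in PASMC (-1.44, adjusted p = 0.0106), while Kdm3a, a histone demethylase, was higher in total_SMC than in BSMC (1.38, adjusted p = 0.00774). Ankrd37 fell from PASMC to total_SMC (-1.29, adjusted p = 0.0182).

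Among 13 genes of peroxisome proliferator-activated receptors (PPAR) and their targets, 4 were higher and 2 lower in PASMC than in BSMC, 4 higher and 3 lower in total_SMC than in BSMC, and 1 higher and 1 lower in total_SMC than in PASMC. The shares of all tested genes were 13.2% higher and 8.88% lower, 23.7% and 18.2%, and 9.39% and 6.83%, in the same order. In a list of 13 genes such counts are small, and whether the list differed from all genes was not tested. Medians were 0.12, 0.11 and -0.07 in that order. Pdk4, a kinase that restrains glucose oxidation, was at 496, 1074 and 521 in BSMC and 1923, 1743 and 1384 in PASMC (1.35, adjusted p = 0.00455). The receptor Ppara was at 3, 14 and 6 in BSMC and 50, 28 and 39 in PASMC (2.38, adjusted p = 0.00674), and Ppard at 73, 45 and 93 against 19, 28 and 42 (-1.23, adjusted p = 0.0496). Fabp4, a fatty acid carrier, was lower in total_SMC than in BSMC (-1.44, adjusted p = 0.00097), at 131 to 245 against 375 to 555.

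Without BSMC replicate 2 the count of members called between PASMC and BSMC was 5, where 6364 of 15253 tested genes were called. Without BSMC replicate 1, PASMC replicate 1 or PASMC replicate 2 the member count was 1. In these settings 1827 of 15173, 1701 of 15470 and 1977 of 15486 tested genes were called, in that order. The members held 0.104 to 0.814 implied reads per exonic base as group means.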

How the data were processed

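RNA of 9 sorted cell libraries was sequenced. The deposited table holds whole numbers that are not raw counts: the spacing of the values shows read counts multiplied by 1 factor per library and rounded by the authors, treated here as a score. The submitters' processing notes name the build mm39, the aligner STAR (2.7.11a) and the counter featureCounts (2.0.4), beside DESeq2 (1.36.0), Trimmomatic (0.39) and Picard (3.1.1), with no steps described. Whether counting used strand is not given in the sources used here.

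No count model was therefore fitted. Values entered limma 3.58.1 (R 4.3.3; lmFit, eBayes with trend and robust) as log2(value + 1), with all 9 libraries and 3 group means. Fold changes are on that scale and understate changes of low genes. The filter asked for 10 or more in no fewer than 3 libraries, and the Benjamini-Hochberg adjustment ran over the 15647 genes left. The fit was run on simulated data with the same setting of spread for all genes and changes in PASMC only. Those settings are simpler than these libraries, so that run says little about the calls here. Implied reads (value divided by the recovered factor) were 6.39 M to 10.02 M per library, and libraries of a group differed by more than sampling noise in all 9 pairs (chi-square per gene 6.55 to 32.9). Levels per kilobase used exonic lengths known for 96.7% of genes. Named genes were the 8 ligands, of each related list up to 4 called genes with the largest absolute log2 fold change, and for each ligand the genes most like it; exceptions are stated. The members and lists were chosen with earlier results of these data known. The 21 alternatives changed scaling, pseudocount, filter, weights, model options, the replicate block or left out 1 library.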

Additional observations from a re-analysis of the deposited data

How the results depend on the processing

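Calls held in all 21 alternatives for Angptl4 in PASMC against BSMC, for Vegfa and Vegfd in total_SMC against PASMC, and for Vegfa, Vegfb, Vegfd, Angpt1 and Angptl4 in total_SMC against BSMC. Of 504 member values, 461 kept direction and side of the threshold, 16 passed newly, 14 no longer passed and 13 changed sign. With only the groups compared in the fit, 1926 genes and 1 member were called for PASMC against BSMC, and 4345 genes and 7 members for total_SMC against PASMC. Array weights gave 4559 genes and 4 members for PASMC against BSMC, and 5082 genes and 8 members for total_SMC against PASMC. Without the trend and robust options 2417 genes and 1 member were called for PASMC against BSMC. The cause of these shifts was not tested. Leaving out 1 library at a time gave 1701 to 6364 genes and 1 to 5 members for PASMC against BSMC, 1597 to 3205 genes and 3 to 5 members for total_SMC against PASMC, and 4254 to 8056 genes and 6 members for total_SMC against BSMC. The genes called for PASMC against BSMC were 1827 without BSMC replicate 1, 6364 without BSMC replicate 2, 2299 without BSMC replicate 3, 1701 without PASMC replicate 1 and 1977 without PASMC replicate 2. They were 1607, 1597 and 1610 for total_SMC against PASMC without total_SMC replicate 1, 2 or 3, and 4254 for total_SMC against BSMC without total_SMC replicate 3.

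Sign changes concerned uncalled differences. Angpt2 in PASMC against BSMC was -0.078 with quantile, -0.10 with cyclic loess and -0.057 with CPM scaling, and -0.0326 to 0.16 with 1 library left out (-0.0326 without BSMC replicate 1, -0.0221 without BSMC replicate 3, -0.0254 without PASMC replicate 2). Angptl2 in total_SMC against BSMC was -0.15, -0.11 and -0.13 under those scalings, and -0.16 to 0.15 with 1 library left out (-0.16 without BSMC replicate 1, -0.04 without total_SMC replicate 3). Vegfc in total_SMC against BSMC was 0.0588 on implied reads and -0.36 to 0.12 with 1 library left out. Scaling also moved the split of calls over all genes. PASMC against BSMC had 2062 higher and 1389 lower genes, 2017 and 2072 under quantile, 2028 and 2030 under loess, 1817 and 2106 under CPM and 1891 and 690 on implied reads, whose median was 0.27. For total_SMC against PASMC the split was 1470 and 1069, and 1330 and 1416 under quantile scaling. For total_SMC against BSMC it was 3706 and 2847, 3217 and 4049 under quantile, 3042 and 4065 under CPM (median -0.11) and 3392 and 1554 on implied reads (median 0.22). Same-numbered libraries correlated at -0.12 to 0.14 in their deviations from group means, and libraries of unlike number at -0.19 to 0.14. These values show no pairing by number, but 3 libraries a group are too few to exclude it. With the replicate block 3287, 2286 and 6350 genes and 2, 4 and 6 members were called. A mean of 0.104 implied reads per exonic base, for Vegfc in PASMC, marks the lowest depth behind a member.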
